A study of Mus musculus with 12 samples.

Results

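The strain comparison took the 6 mice injected with the scrambled virus, out of 12 in the series. The 3 DBA/2J (D2) mice were set against the 3 C57BL/6J (B6) mice. B6 and D2 are inbred mouse strains that differ at many sites across the genome. All 12 mice were males aged 3 to 5 months that received an AAV9 vector in the hippocampus on both sides and were killed at least 6 weeks later. The vector carried a scrambled short hairpin RNA in the Ctrl mice described here. In the other 6 mice, 3 of each strain, it carried a hairpin against Hp1bp3, a chromatin protein that binds heterochromatin protein 1. These KD mice were used here as a second set of animals for the same strain comparison, within the same fit. No uninjected mouse was analysed here, so every value is from virus-injected tissue. The labels give a strain and a treatment for each library. Most libraries of the series hold reads joined from 2 sequencing runs, but which ones was not given in the sources used here, so no term for the run could be fitted and its part in the results was not tested.

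The hippocampus holds the granule cells of the dentate gyrus, the pyramidal neurons of CA1 to CA3, a minority of inhibitory interneurons, and glial and vascular cells. Pyramidal and granule cells release glutamate, which acts on AMPA and NMDA receptors, and interneurons release GABA. Immediate early genes are transcribed within minutes of neuronal activity, and many of them encode transcription factors. The question was which of these cell types and pathways the strain differences belonged to.

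Summed expected counts per library were 25.95 M to 37.56 M in B6 Ctrl and 18.21 M to 32.96 M in D2 Ctrl. Levels are given as CPM, counts per 1 M after TMM scaling, in the order of mice 1, 2 and 3. The reads of each mouse were aligned to the genome of its own strain, so a difference between the strains and a difference between the 2 references cannot be told apart in any value below. The mouse numbers in the labels were also all lower in D2 Ctrl than in B6 Ctrl, so an effect of order, if these numbers carry one, cannot be told apart from strain. Markers of the choroid plexus, the epithelium that makes cerebrospinal fluid, were high in B6 Ctrl 2, D2 Ctrl 2 and D2 Ctrl 3. Transthyretin (Ttr), its main product, stood at 48.2, 2404 and 104 CPM in B6 and 139, 3479.8 and 4568 CPM in D2. D2 Ctrl 3 also stood apart in its interferon-stimulated genes. They summed to 817.7 CPM, against 344.7 to 430.5 CPM in the other 5 Ctrl libraries. The level of transcripts of 6000 bases or more relative to those under 2000 bases also varied between libraries. On the log2 scale and against the mean of the 6 libraries of its strain it was -0.11, -0.03 and 0.26 in B6 Ctrl and 0.15, 0.25 and -0.25 in D2 Ctrl, so B6 Ctrl 3 and D2 Ctrl 3 lay at opposite ends.

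Markers of hippocampal neurons were present at high levels in all 6 mice. Slc17a7, the vesicular glutamate transporter of excitatory neurons, was at 1412, 1247 and 1360.5 CPM in B6 and 1382, 1236 and 1463 CPM in D2. Of 15 genes common to glutamatergic neurons, 0 were called by the quasi-likelihood test of edgeR at an adjusted p under 0.05 and 1 had an unadjusted p under 0.05. Their median log2 fold change, D2 over B6, was -0.03. The targeted gene Hp1bp3 was at 308, 294 and 310.1 CPM in B6 Ctrl and 226, 215 and 234 CPM in D2 Ctrl. The 2 groups did not overlap, but the difference missed the threshold (log2 fold change -0.43 ± 0.15, adjusted p = 0.0912). In KD mice it was at 185, 182 and 259 CPM in B6 and 177, 163 and 229.6 CPM in D2, so that the library labelled D2 KD 3 lay within the range of D2 Ctrl.

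Across the transcriptome 2216 of 15853 genes tested passed the threshold, of which 829 were higher and 1387 lower in D2. These are 14.0% of the genes tested, 5.23% higher and 8.75% lower, and this is the background against which each list below is read. Of the 2216 genes, 1169 differed at least 2-fold in the fit and 317 at least 8-fold. The median over all genes tested was 0.02 on the log2 scale. In 31.7% of all genes the 3 libraries of one strain lay wholly above those of the other, so a lack of overlap alone is common here. Calls were spread over all chromosomes with more than 100 genes tested, from 10.6% of genes on chromosome 15 to 17.5% on chromosomes 4 and 17.

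**Figure D1:**
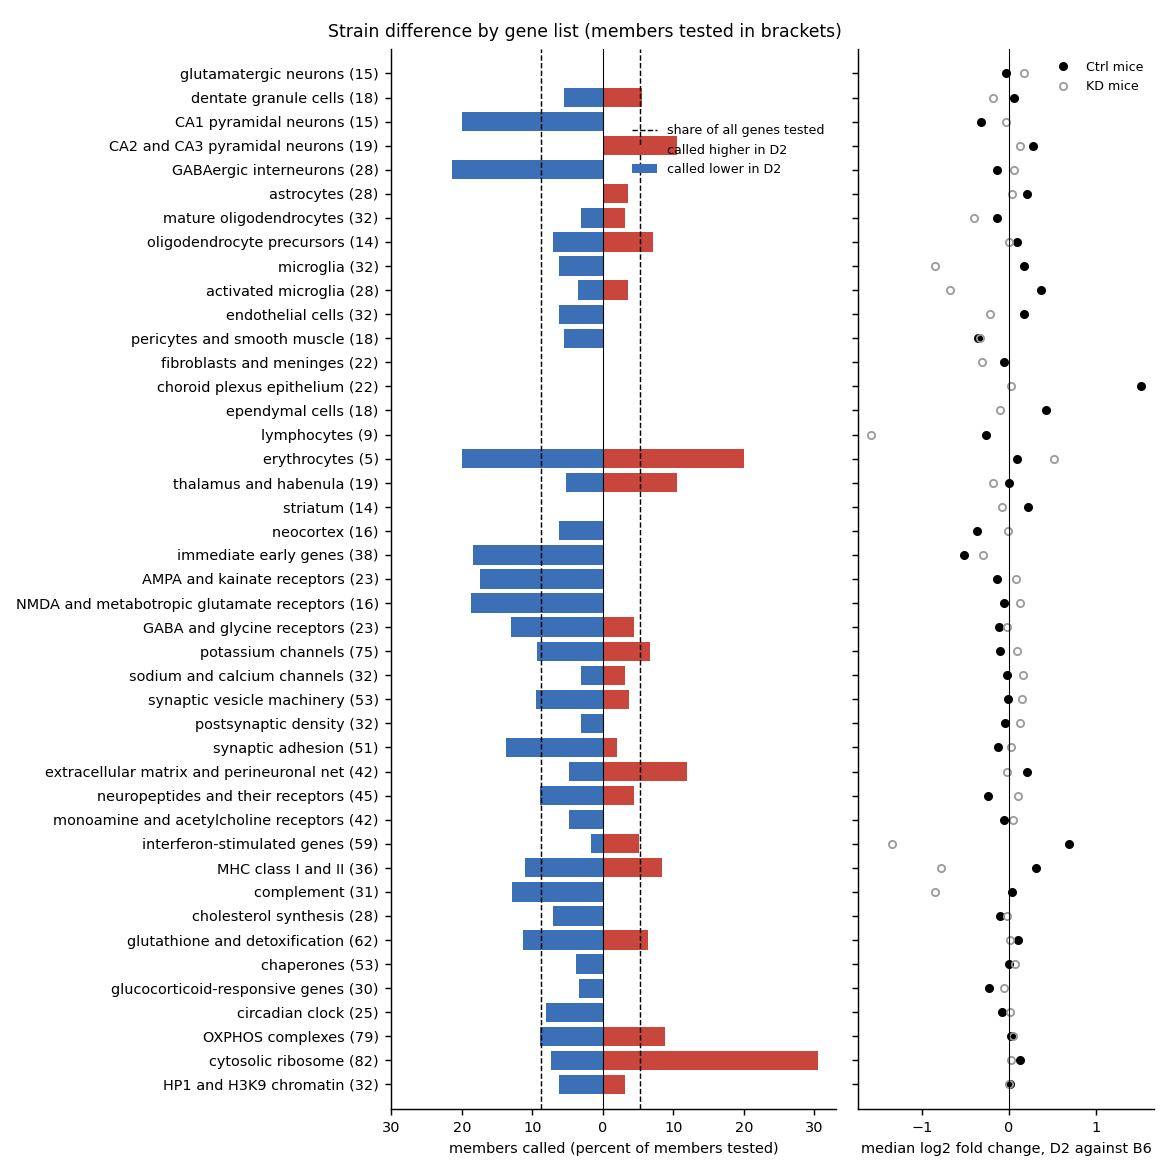
Left, the share of each list's tested members called higher (right of 0) or lower (left of 0) in D2 Ctrl against B6 Ctrl, with dashed lines at the shares of all genes, 5.23% and 8.75%. Right, the median log2 fold change of each list in Ctrl and in KD mice. Cytosolic ribosomal protein genes had the largest share called of the 43 lists except the 5 erythrocyte markers, and the choroid plexus list had the highest median, 1.52 in Ctrl mice.

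Genes known to differ between inbred strains were also examined. They cannot check the labels apart from the reference, since each library was aligned to the genome of its labelled strain. Of 12 such genes tested, 6 were called higher and 1 lower in D2. Glo1, the glyoxalase that removes methylglyoxal, was at 106, 122 and 111 CPM in B6 and 252, 255 and 265 CPM in D2 (log2 fold change 1.19 ± 0.08, adjusted p = 1.1e-06). Alad, an enzyme of heme synthesis, was at 13.9, 14.4 and 13.8 CPM and 62.7, 69.8 and 67.4 CPM (log2 fold change 2.25 ± 0.12, adjusted p = 3.03e-07). Both genes separated the strains with little spread between mice. Gabra2, the alpha 2 subunit of the GABA-A receptor, was at 66.7, 56.9 and 77.2 CPM in B6 and 197, 196 and 200.5 CPM in D2 (log2 fold change 1.56 ± 0.15, adjusted p = 3.52e-05). Nnt, a mitochondrial transhydrogenase whose gene is partly deleted in B6, was at 27.2, 27.9 and 23.5 CPM and 30.2, 36 and 44.9 CPM (log2 fold change 0.50 ± 0.13, adjusted p = 0.0288, lost in 9 of 26 alternative fits). Gpnmb, a glycoprotein of pigment cells and phagocytes that carries a stop codon in D2, was at 6.34, 32.9 and 9.72 CPM in B6 and 1.15, 0.396 and 1.37 CPM in D2 (log2 fold change -3.99 ± 0.69, adjusted p = 0.00207). H2-Ea-ps, a class II gene disrupted in B6, had 0 counts in all 3 B6 Ctrl libraries and 0.898, 0.623 and 2.11 CPM in D2, at least 12.9-fold higher if 3 counts per library are taken as the floor. The interferon-inducible Ifi202b was at 0, 0.0382 and 0.145 CPM and 1.98, 0.679 and 7.11 CPM. Tyrp1, Hc, Myo5a and Cox7a2l were among those not called. Myo5a, which carries the dilute coat color allele of D2, was at 311, 325 and 434 CPM in B6 and 349, 388 and 201 CPM in D2 (log2 fold change -0.19 ± 0.24, adjusted p = 0.722), with D2 Ctrl 3 under the other 5 mice.

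Receptors and channels of synapses included some of the widest gaps among abundant genes. For NMDA and metabotropic glutamate receptors 3 of 16 tested genes were lower in D2 and 0 were higher (18.8%, against 14.0% of all genes). Grin2b, the GluN2B subunit of the NMDA receptor, was at 633, 590.3 and 889 CPM in B6 and 35.7, 40.4 and 50.04 CPM in D2 (log2 fold change -4.07 ± 0.28, adjusted p = 2.18e-06). All 3 D2 mice were far below all B6 mice. Its obligate partner Grin1 was at 536, 509 and 567 CPM and 566, 518 and 402 CPM, with overlapping groups (log2 fold change -0.12 ± 0.15, adjusted p = 0.729). The delta receptor Grid1, which organizes synapses rather than passing fast current, was lower by a smaller step (-0.65 ± 0.09 on the log2 scale).

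Among 23 AMPA and kainate receptor genes, 4 were lower in D2 and 0 higher (17.4%, against 14.0% of all genes). All 4 encode transmembrane AMPA receptor regulatory proteins, the auxiliary subunits that traffic and tune these receptors. Cacng7 was at 122, 113 and 109.7 CPM in B6 and 37.7, 40.9 and 40.4 CPM in D2 (log2 fold change -1.54 ± 0.11, adjusted p = 2.84e-06). Cacng4 was at 29.5, 25.2 and 27.1 CPM and 6.41, 6.91 and 6.22 CPM (log2 fold change -2.07 ± 0.18, adjusted p = 1.31e-05). Cacng2, or stargazin, was at 88.02, 81.01 and 82.1 CPM and 43.9, 40.8 and 35.97 CPM, and Cacng3 at 69.5, 54.3 and 55.5 CPM and 38.2, 34.9 and 27.4 CPM. In each of these genes the strains did not overlap, as in 2209 of the 2216 genes called. In KD mice 2 members were lower, Cacng4 and Cacng7, and 4 were higher, whereas Cacng2 and Cacng3 were not called there (-0.65 and -0.33, adjusted p = 0.0501 and 0.342). The pore-forming subunits were not called. Gria1 was at 1196, 1167 and 1392 CPM in B6 and 1278, 1156 and 914 CPM in D2 (log2 fold change -0.17 ± 0.15, adjusted p = 0.602).

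Of 23 GABA and glycine receptor genes, 3 were lower and 1, Gabra2, was higher in D2 (17.4%, against 14.0% of all genes). Gabrg3, a gamma subunit of the GABA-A receptor, was at 21.7, 19.1 and 26.4 CPM in B6 and 0.929, 0.849 and 0.630 CPM in D2 (log2 fold change -4.79 ± 0.25, adjusted p = 2.18e-07). Gabrb1, a beta subunit, was at 51.5, 45.5 and 42.2 CPM and 25.2, 26.1 and 33.7 CPM (log2 fold change -0.71 ± 0.15, adjusted p = 0.00644). Gabbr2, a subunit of the metabotropic GABA-B receptor, was at 410.4, 364 and 404 CPM and 283, 280.0 and 221 CPM (log2 fold change -0.59 ± 0.14, adjusted p = 0.0141).

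Potassium channels moved in both directions, with 5 of 75 higher and 7 lower (16.0%, near the background). In KD mice the counts were 8 and 5. Kcnq3, a subunit of the M-channel, which restrains repetitive firing, was at 199, 177 and 259 CPM in B6 and 12.2, 9.62 and 3.78 CPM in D2 (log2 fold change -4.63 ± 0.47, adjusted p = 4.58e-05). It was lower in every D2 mouse and lowest in D2 Ctrl 3. Kcnh7, of the ether-a-go-go related family, was at 63.2, 59.2 and 63.9 CPM and 2.11, 2.04 and 1.78 CPM (log2 fold change -4.97 ± 0.35, adjusted p = 2.64e-06), and Kcnj3, a subunit of the channel opened by G proteins, at 173, 176 and 207 CPM and 63.2, 54.9 and 39.4 CPM. The delayed rectifier Kcna2 went the other way. It was at 15.1, 21.3 and 40.7 CPM in B6 and 306, 303 and 215 CPM in D2 (log2 fold change 3.42 ± 0.37, adjusted p = 7.58e-05). Kcnn3, a small-conductance calcium-activated channel, was also higher (log2 fold change 2.53 ± 0.49, adjusted p = 0.00444), as were Kcnj11, the pore of the ATP-sensitive channel (log2 fold change 1.07 ± 0.15, adjusted p = 0.000539), and Kcnj10, the inward rectifier of astrocytes (log2 fold change 0.79 ± 0.15, adjusted p = 0.00457). Of 32 sodium and calcium channel genes 1 was higher and 1 lower, the latter being Cacnb1 (log2 fold change -0.58 ± 0.12, adjusted p = 0.00588).

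**Figure D2:**
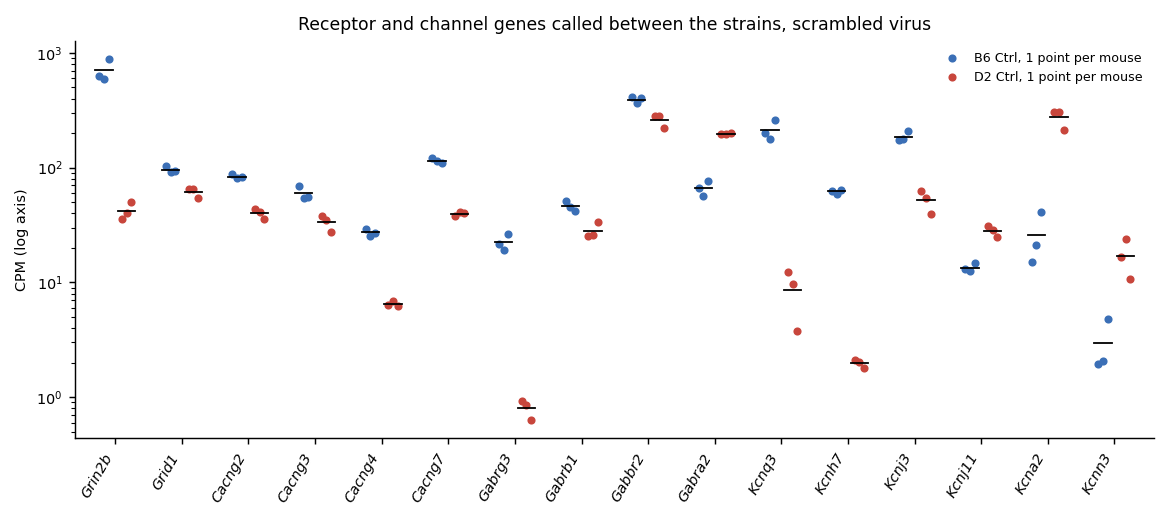
CPM on a log axis of selected receptor and channel genes called between the strains, with B6 Ctrl in blue and D2 Ctrl in red. Each point is 1 mouse and each bar the mean of 3. Grin2b, Gabrg3, Kcnq3 and Kcnh7 sit more than 8-fold lower in D2 and Kcna2 more than 8-fold higher, whereas Grid1 and Gabbr2 differ by much less.

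In the vesicle release machinery 5 of 53 genes were lower and 2 higher (13.2%, near the 14.0% of all genes). In KD mice 2 were lower and 4 higher. The RIM scaffold proteins of the active zone differed in direction from gene to gene. Rims3 was at 97.8, 123 and 114 CPM in B6 and 11.03, 10.4 and 6.19 CPM in D2 (log2 fold change -3.60 ± 0.35, adjusted p = 3.17e-05), whereas Rims2 was at 38.7, 37.5 and 55.3 CPM and 84.8, 108 and 67.5 CPM (log2 fold change 0.99 ± 0.22, adjusted p = 0.012). Syn3, a synapsin, was at 9.14, 11.2 and 14.5 CPM and 51.2, 45 and 41.6 CPM (log2 fold change 1.99 ± 0.33, adjusted p = 0.00161). The postsynaptic density list had 1 call of 32, the scaffold Shank2 (log2 fold change -0.55 ± 0.11, adjusted p = 0.00495). Of 51 synaptic adhesion genes 7 were lower and 1 was higher (15.7%, near the background). Tenm1, a teneurin, was at 41.2, 31.3 and 45.2 CPM in B6 and 5.76, 8.04 and 2.70 CPM in D2 (log2 fold change -2.85 ± 0.43, adjusted p = 0.000792), and Il1rapl1, a gene linked to intellectual disability, at 11.2, 9.02 and 11.9 CPM and 1.67, 1.92 and 1.19 CPM (log2 fold change -2.76 ± 0.30, adjusted p = 7.47e-05). The member that was higher was C1ql3, a secreted synaptic organizer (log2 fold change 0.69 ± 0.17, adjusted p = 0.0189). Of 42 genes of the extracellular matrix and perineuronal net, 5 were higher and 2 lower (16.7%). They were led by the proteoglycan Spock1 at 66.8, 70.3 and 81 CPM in B6 and 312, 321 and 270.4 CPM in D2 (log2 fold change 2.05 ± 0.13, adjusted p = 9.14e-07). Its paralog Spock2 was lower (log2 fold change -0.54 ± 0.09, adjusted p = 0.00227).

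Markers of principal cell types were mostly below the background share. Of 18 dentate granule cell markers 1 was higher (C1ql3) and 1 lower (the transcription factor Glis3, log2 fold change -1.56 ± 0.37, adjusted p = 0.0149). For CA1 pyramidal neurons 3 of 15 were lower, namely Kcnh7, Gpr161 and Crym, and the median was -0.32. Crym, a thyroid hormone binding protein, was at 205, 174 and 187 CPM in B6 and 119, 133 and 112 CPM in D2 (log2 fold change -0.64 ± 0.14, adjusted p = 0.00796). Without D2 Ctrl 3, 2 CA1 markers were called and the median was -0.19. In KD mice 1 was called and the median was -0.03, and Crym and Gpr161 were not called (-0.06 and -0.91, adjusted p = 0.861 and 0.0906). For CA2 and CA3 neurons 2 of 19 were higher, Spock1 and the cadherin Cdh24 (log2 fold change 1.85 ± 0.23, adjusted p = 0.000183), with a median of 0.27. In tissue RNA of this kind, fewer cells of a type and less RNA per cell cannot be told apart.

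Interneuron markers had 6 of 28 lower and 0 higher (21.4%), with a median of -0.14 and 8 members above 0. Sst, the somatostatin peptide of dendrite-targeting interneurons, was at 169.7, 119 and 123 CPM in B6 and 79.7, 95.9 and 73.2 CPM in D2 (log2 fold change -0.73 ± 0.16, adjusted p = 0.0081). Cort, the related peptide cortistatin, was at 6.09, 4.66 and 4.51 CPM and 0.712, 1.19 and 0.333 CPM (log2 fold change -2.81 ± 0.45, adjusted p = 0.00117). Nos1, the neuronal nitric oxide synthase, was at 222, 207 and 213 CPM and 88.6, 99.6 and 78.4 CPM (log2 fold change -1.27 ± 0.10, adjusted p = 7.76e-06). The other 3 were Dlx1, a homeobox factor of the lineage (log2 fold change -0.76 ± 0.20, adjusted p = 0.0235), Nxph1, a ligand of neurexins (log2 fold change -0.73 ± 0.14, adjusted p = 0.0049), and Erbb4, the neuregulin receptor, at 51.5, 49.97 and 65.01 CPM in B6 and 1.77, 1.75 and 1.26 CPM in D2 (log2 fold change -5.12 ± 0.25, adjusted p = 1.34e-07). In all 6 genes the strains did not overlap, which held for 2209 of the 2216 genes called and so adds little to the calls. Gad1, an enzyme that makes GABA, and Pvalb showed no such gap. Gad1 was at 382, 378 and 413 CPM in B6 and 389, 391 and 306 CPM in D2 (log2 fold change -0.11 ± 0.19, adjusted p = 0.808), and Pvalb, the marker of basket cells, at 21.98, 25.7 and 25.9 CPM and 28.4, 25.8 and 16.7 CPM (log2 fold change -0.05 ± 0.31, adjusted p = 0.954). Summed over the list, CPM ran from 1866 to 2132 in B6 and from 1397 to 1933 in D2, which overlapped, with the lowest sum in D2 Ctrl 3. With any 1 Ctrl library left out, 5 or 6 markers were called. In the KD mice, which are other animals, 3 were lower and 1 was higher, and the median was 0.06. Sst differed by -0.07 there (adjusted p = 0.851), whereas Nos1 and Cort differed by -0.93 and -1.39 (adjusted p = 8.34e-05 and 0.046).

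Other neuropeptide and amine genes included single large gaps. Of 45 neuropeptides and receptors 4 were lower and 2 higher (13.3%, near the 14.0% of all genes). Pdyn, the precursor of dynorphin in granule cells, was at 12.9, 10.9 and 11.6 CPM in B6 and 4.09, 2.83 and 1.63 CPM in D2 (log2 fold change -2.05 ± 0.28, adjusted p = 0.000396). The somatostatin receptor Sstr1 was higher (log2 fold change 1.47 ± 0.26, adjusted p = 0.0024), as was Vipr2, a receptor of vasoactive intestinal peptide (log2 fold change 1.88 ± 0.35, adjusted p = 0.00346). Of 42 receptors for monoamines and acetylcholine, 2 were lower, both for serotonin, and 0 higher (4.76%, under the background). Htr1b was at 13.3, 11.7 and 13.4 CPM and 2.51, 2.55 and 1.19 CPM (log2 fold change -2.63 ± 0.39, adjusted p = 0.000827), and Htr6 at 4.45, 5.08 and 5.09 CPM and 2.32, 1.87 and 2.30 CPM (log2 fold change -1.16 ± 0.22, adjusted p = 0.00364).

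Immediate early genes had 7 of 38 members lower in D2 and 0 higher (18.4%, against 8.75% of all genes lower). Their median was -0.52 on the log2 scale, and 33 of 38 were below 0. In 20 of the 38 the D2 mice lay wholly below the B6 mice, against 17.9% of all genes, and in 0 wholly above. Nr4a3, an orphan nuclear receptor, was at 109, 108 and 140.4 CPM in B6 and 37.8, 31.5 and 9.85 CPM in D2 (log2 fold change -2.17 ± 0.45, adjusted p = 0.00694). Dusp5, a phosphatase that inactivates ERK, was at 22.2, 26.4 and 23.6 CPM and 5.42, 5.66 and 5.67 CPM (log2 fold change -2.11 ± 0.27, adjusted p = 0.000248). The 3 mice of each strain agreed closely for Dusp5. Nr4a1 was at 82.4, 117 and 79.5 CPM and 46.1, 42.7 and 33.1 CPM (log2 fold change -1.19 ± 0.28, adjusted p = 0.0147), and Egr2, a zinc finger factor, at 8.25, 10.1 and 5.64 CPM and 2.17, 2.66 and 1.89 CPM (log2 fold change -1.84 ± 0.49, adjusted p = 0.0277, lost in 7 of 26 alternative fits). Arc, a protein of active dendrites, was at 143, 189 and 173 CPM and 92.4, 61.3 and 72.1 CPM (log2 fold change -1.16 ± 0.30, adjusted p = 0.0234). Dusp1 was at 21.8, 36.6 and 21.3 CPM and 12.9, 11.4 and 11.04 CPM (log2 fold change -1.17 ± 0.34, adjusted p = 0.043), and Arl4d, a small GTPase, at 12.4, 11.2 and 9.75 CPM and 6.69, 7.08 and 5.44 CPM (log2 fold change -0.80 ± 0.22, adjusted p = 0.0298). Fos, the best known member, was at 29.7, 41.4 and 27.96 CPM and 16.9, 15.2 and 14.1 CPM without overlap but was not called (log2 fold change -1.10 ± 0.43, adjusted p = 0.139).

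Summed over the list, CPM ran from 2221 to 2336 in B6 and from 1615 to 1738 in D2, with no overlap. How many members were called depended on the mice. Without B6 Ctrl 2, which had the highest Fos, Nr4a1 and Dusp1, the count was 2 and the median -0.38. Without D2 Ctrl 3 the count was also 2 and the median -0.39. In both of these fits the 2 genes called were Nr4a3 and Dusp5, so the calls of Arc and Arl4d were lost in each. The call of Dusp1 was lost in 13 of 26 alternative fits. The count was 3 without D2 Ctrl 2 and 4 without D2 Ctrl 1 or B6 Ctrl 1. With the total count of each library as a covariate 3 members were called, and with the 6 Ctrl libraries fitted alone 11 were. The median was below 0 in every one of these fits. In KD mice 3 of 38 were lower and 27 were below 0, with a median of -0.30. Nr4a3 and Dusp5 were lower there too (-2.16 and -1.87, adjusted p = 0.00743 and 0.00053), whereas Arc and Nr4a1 were not called (0.35 and 0.06, adjusted p = 0.527 and 0.928). The difference between Ctrl and KD in the strain gap had an unadjusted p of 0.00433 for Arc and an adjusted p of 0.82.

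**Figure D3:**
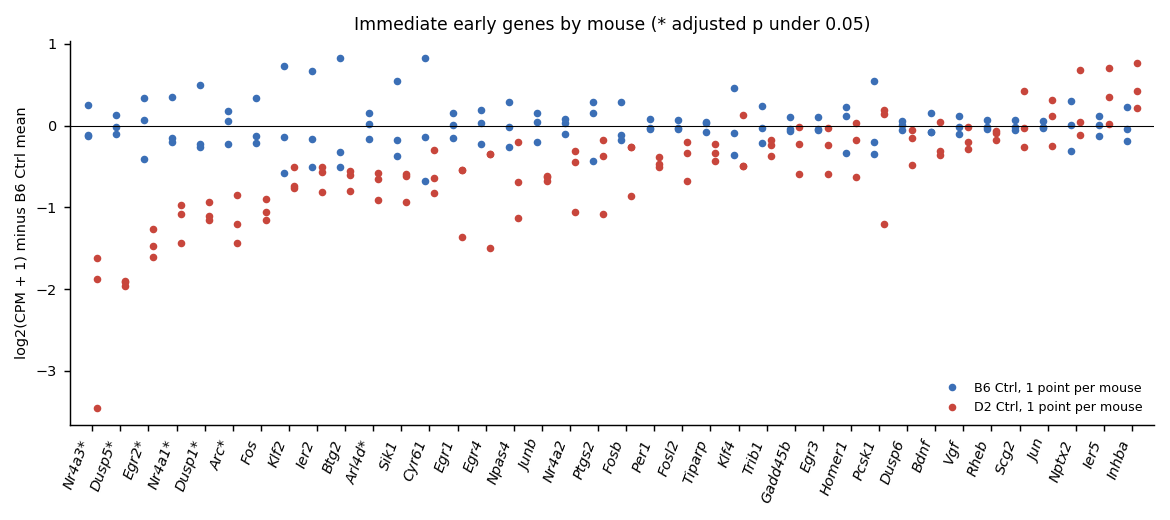
All 38 immediate early genes tested, ordered by log2 fold change, as log2(CPM + 1) of each mouse minus the mean of B6 Ctrl for that gene. Blue points are B6 Ctrl mice and red points D2 Ctrl mice, and asterisks mark the 7 genes called. Most red points lie below 0, and D2 Ctrl 3 is the lowest for Nr4a3.

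The promoters of 4 of the 7 called genes are shown because cyclic AMP response elements, which bind the activity-regulated factor CREB, are a known feature of this gene class. Each sequence runs from 250 bases before to 50 bases after the RefSeq start, 5′ to 3′ on the strand of the gene, in build GRCm38.p6, which is the B6 reference and not that of D2. Capitals mark the full element TGACGTCA in Dusp1 (chr17:26508423-26508722, minus strand) and Arl4d (chr11:101665291-101665590, plus strand), and the core element TGACG, or CGTCA on the other strand, in Nr4a1 (chr15:101266596-101266895, plus strand) and Nr4a3 (chr4:48045055-48045354, plus strand).
Dusp1: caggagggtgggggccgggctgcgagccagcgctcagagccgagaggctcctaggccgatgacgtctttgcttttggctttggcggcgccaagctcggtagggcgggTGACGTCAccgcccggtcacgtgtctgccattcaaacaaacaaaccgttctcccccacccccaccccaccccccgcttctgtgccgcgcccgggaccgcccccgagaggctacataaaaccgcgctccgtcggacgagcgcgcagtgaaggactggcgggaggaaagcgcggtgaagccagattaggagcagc
Arl4d: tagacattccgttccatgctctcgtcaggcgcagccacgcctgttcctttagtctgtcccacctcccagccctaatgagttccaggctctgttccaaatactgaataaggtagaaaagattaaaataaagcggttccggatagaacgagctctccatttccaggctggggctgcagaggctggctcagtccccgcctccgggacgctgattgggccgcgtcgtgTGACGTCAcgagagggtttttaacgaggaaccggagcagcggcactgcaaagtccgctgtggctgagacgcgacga
Nr4a1: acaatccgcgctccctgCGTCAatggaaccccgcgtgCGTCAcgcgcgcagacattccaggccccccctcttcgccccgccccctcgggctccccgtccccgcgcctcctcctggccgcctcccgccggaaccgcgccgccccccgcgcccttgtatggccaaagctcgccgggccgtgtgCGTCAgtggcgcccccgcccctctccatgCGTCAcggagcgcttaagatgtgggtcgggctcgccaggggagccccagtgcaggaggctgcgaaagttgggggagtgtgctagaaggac
Nr4a3: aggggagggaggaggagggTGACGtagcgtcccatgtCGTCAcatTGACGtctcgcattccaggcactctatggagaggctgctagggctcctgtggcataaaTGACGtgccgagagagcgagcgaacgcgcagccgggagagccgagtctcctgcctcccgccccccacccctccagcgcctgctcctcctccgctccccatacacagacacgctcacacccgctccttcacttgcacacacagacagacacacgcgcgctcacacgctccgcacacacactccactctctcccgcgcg
The full element starts 143 bases before the start of Dusp1 and 26 bases before that of Arl4d. Both strands were searched, and the full element contains the core element. Of the 38 immediate early genes, 29 had a promoter in the table. The full element was in 5 of these 29 (17.2%) and in 1.88% of all 27025 promoters, or 2.98% of the 11729 of genes tested. The core element was in 20 of 29 (69%), in 21% of all and in 29.8% of those of genes tested. Among the 6 called genes with an entry 5 held the core element, and among the 23 not called 15 did (65.2%). The called genes whose promoters are not shown are Dusp5, with 1 match of the core element, Egr2, with 0, and Arc, which had no entry.

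The cytosolic ribosome was the pathway with the most calls. Of 82 ribosomal protein genes tested, 25 were higher and 6 lower in D2 (37.8%), although the median of the list was only 0.13. Ribosomal proteins are built into the ribosome in equal numbers, and their genes have many processed pseudogenes, which are copies of the mature transcript pasted elsewhere in the genome. Rps6, a target of S6 kinase, was at 19.96, 18.8 and 17.4 CPM in B6 and 255, 228 and 278 CPM in D2 (log2 fold change 3.76 ± 0.15, adjusted p = 4.19e-08). Rpl31 was at 17.3, 15.7 and 13.7 CPM and 188, 187 and 215 CPM (log2 fold change 3.66 ± 0.12, adjusted p = 8.35e-09), and Rpl27 at 8.63, 7.65 and 7.11 CPM and 81.8, 77.5 and 93.4 CPM (log2 fold change 3.43 ± 0.19, adjusted p = 4.36e-07). In the other direction Rpl34 was at 74.6, 73.1 and 66.9 CPM in B6 and 4.86, 4.36 and 5.44 CPM in D2 (log2 fold change -3.87 ± 0.16, adjusted p = 4.74e-08). Rpl30 was at 139, 136 and 128 CPM and 10.8, 7.75 and 15.3 CPM (log2 fold change -3.56 ± 0.20, adjusted p = 4.01e-07), and Rpl26 at 209.6, 198 and 178 CPM and 18.5, 18.5 and 21.04 CPM (log2 fold change -3.33 ± 0.13, adjusted p = 4.19e-08). Replicates within a strain lay close together in all of these genes. Rps27 had 0 counts in the 3 B6 Ctrl libraries and was at 1.77, 2.09 and 2.30 CPM in D2, at least 21.8-fold higher with 3 counts per library as the floor.

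On a scale of CPM per 1000 bases of coding sequence, the 25 genes called higher had a median level of 75.2 in B6 and 304 in D2. The 51 genes not called had a median level of 308 in B6 and 332 in D2. The called genes were therefore below the uncalled ones in B6 and near them in D2. The 6 genes called lower had a median level of 380 in B6 and 139 in D2. Of the 82 genes, 76 had at least 1 annotated pseudogene at 95% identity or more over 60% of the coding sequence, as did 24 of the 25 called higher. Rpl21 had 58 such copies and was at 144, 136 and 135 CPM in B6 and 282, 267 and 315 CPM in D2 (log2 fold change 1.06 ± 0.08, adjusted p = 2.85e-06). With all genes left out that had such a copy or that overlapped another tested gene on the same strand, 5 ribosomal protein genes remained, of which 1 was called. In KD mice 25 ribosomal protein genes were higher and 8 lower in D2.

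**Figure D4:**
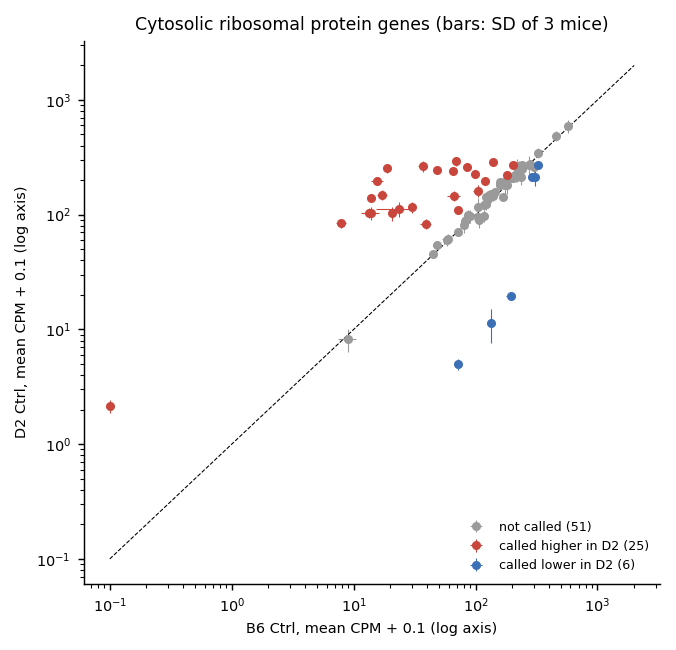
Mean CPM + 0.1 of the 82 ribosomal protein genes in B6 Ctrl (horizontal) and D2 Ctrl (vertical), both on log axes, with bars for the SD of 3 mice and a dashed line of equality. The 51 genes not called lie along the line, the 25 called higher lie above it mostly at low B6 levels, and 3 of the 6 called lower lie more than 8-fold below it.

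For 3 ribosomal protein genes a near-identical copy was called in the opposite direction. Rpl34 fell from 71.6 CPM in B6 to 4.89 CPM in D2 while Rpl34-ps1 went from 0 to 62.95 CPM, and the 2 together made 71.6 CPM in B6 and 67.8 CPM in D2. Rpl26 and Gm15772 together made 195.5 and 221 CPM, and Rpl30 and Gm12191 made 135.3 and 140.7 CPM. In each pair the sum moved far less than either gene. All 3 of these ribosomal protein genes were called lower in D2, and no ribosomal protein gene called higher had a tested copy called the other way. Among all genes tested there were 417 pairs of near-identical copies, and in 61 of them the 2 genes were called in opposite directions. The summed level of a pair differed by less than 1.5-fold between the strains in 34 of the 61. These pairs are not independent, since a gene with several copies, such as Gm14288 or Gm3383, is in several of them. They were also picked for opposite calls, so that the 2 changes partly cancel in the sum, and no share was computed for the other pairs. Hba-a1 and Hba-a2, the 2 alpha globin genes of red cells, were called in opposite directions, with 132.5 CPM in B6 and 146.8 CPM in D2 for the pair. Oaz1, the brake on polyamine synthesis, and Oaz1-ps made 181.8 and 184.5 CPM together. Some of the 61, such as Nptxr with Npcd, are genes that overlap on 1 strand. Such overlapping genes were called in opposite directions in 10 pairs, counted apart from the 61 but in part the same, and the sum differed by less than 1.5-fold in 8 of them. The exceptions were Zbtb20 with BC002163, from 376.5 CPM in B6 to 80.28 CPM in D2, and Cnot6 with Gm12191, from 66.78 to 159.5 CPM, named after their values were seen. Nptxr, the neuronal pentraxin receptor, was at 1276, 1022 and 1157 CPM in B6 and 280.2, 244 and 294 CPM in D2 (log2 fold change -2.08 ± 0.37, adjusted p = 0.00281), and Npcd, annotated across it, had 0 counts in B6 Ctrl and was at 875, 941 and 1060.5 CPM in D2. The pair summed to 1152 CPM in B6 and 1231 CPM in D2. The level of a single member of such a pair is therefore uncertain.

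Calls over all genes tested also varied with pseudogene copies, but the ribosomal protein genes above were not left out of these counts. Of 36 processed pseudogenes tested, 23 were called higher in D2 and 0 lower, with a median of 3.38. Protein-coding genes with 0 pseudogene copies were called higher in 4.32% of cases and lower in 8.27%. With 1 copy the shares were 4.71% and 12.1%, and with 2 to 4 copies 15.6% and 6.45%. The 87 genes with 5 or more copies were called higher in 24.1% and lower in 10.3%. The share called lower thus did not follow the number of copies. Ppia, cyclophilin A and a frequent reference gene in PCR, had 16 pseudogene copies and was at 20.5, 19.7 and 18.7 CPM in B6 and 732, 711 and 747 CPM in D2 (log2 fold change 5.22 ± 0.12, adjusted p = 1.25e-09). A second feature was the annotated length after the stop codon. Genes with 8000 bases or more there were lower in D2 in 21 of 100 cases, against 7.79% of genes with under 2000 bases. They were also higher more often, in 8 of 100 cases against 4.68%, and their median was 0.07. Grin2b, Kcnq3, Kcnh7, Rora and Dnajb14, all lower in D2, belong to this class of 100 genes. Kcna2, Glo1 and Fzd3, which were higher in D2, do as well. Gabrg3 and Erbb4, both lower, fall just under its limit with 7951 and 7858 bases. The part of the reference in these differences was not tested.

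OXPHOS genes had 7 of 79 higher and 7 lower (17.7%), with a median of 0.03. Atp5g2, a subunit c gene of ATP synthase, had 0 counts in B6 Ctrl and was at 71.9, 73.4 and 84.4 CPM in D2. Ndufb4, of complex I, was at 19.96, 18.2 and 18.05 CPM in B6 and 48.1, 45.7 and 47.97 CPM in D2 (log2 fold change 1.33 ± 0.08, adjusted p = 9.17e-07), and Ndufs5, also of complex I, at 74.2, 75.7 and 67.2 CPM and 29.5, 31.3 and 33.8 CPM (log2 fold change -1.20 ± 0.13, adjusted p = 9.05e-05). Ndufs5 and the near-identical BC002163 summed to 72.4 CPM in B6 and 71.0 CPM in D2. Ndufb2, which has no such copy, was at 57.5, 55.7 and 55.4 CPM and 28.2, 24.7 and 25.6 CPM (log2 fold change -1.10 ± 0.14, adjusted p = 0.000202).

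Genes of glutathione and detoxification had 4 of 62 higher and 7 lower (17.7%). Besides Glo1 and Nnt, Gsr, which regenerates reduced glutathione, was higher (log2 fold change 0.84 ± 0.13, adjusted p = 0.00107). Gclm, the regulatory subunit of the enzyme that makes the first step of glutathione synthesis, was at 50.5, 50.5 and 52.8 CPM in B6 and 22.3, 21.9 and 20.1 CPM in D2 (log2 fold change -1.26 ± 0.09, adjusted p = 1.8e-06). Gss, which makes the second step, was at 18.96, 20.2 and 20.4 CPM and 14.9, 12.3 and 13.3 CPM (log2 fold change -0.56 ± 0.12, adjusted p = 0.00895). Gclm and Gss were lower in every D2 mouse than in any B6 mouse. They were picked by the naming rule and do not stand for all genes of glutathione synthesis. Of 28 cholesterol synthesis genes 2 were lower, led by Lss, lanosterol synthase (log2 fold change -1.40 ± 0.24, adjusted p = 0.00196). Of 53 chaperones 2 were lower, Hspa4l (log2 fold change -0.79 ± 0.15, adjusted p = 0.00317) and St13 (log2 fold change -0.50 ± 0.07, adjusted p = 0.000427). Of 25 clock genes 2 were lower, Gm129 (log2 fold change -0.97 ± 0.26, adjusted p = 0.0283, lost in 8 of 26 alternative fits) and the nuclear receptor Rora at 45.9, 49.6 and 51.9 CPM in B6 and 3.44, 2.49 and 3.70 CPM in D2 (log2 fold change -3.92 ± 0.26, adjusted p = 1.54e-06). Of 30 glucocorticoid-responsive genes 1 was lower, Dusp1. Of 32 genes of the HP1 and H3K9 chromatin pathway 1 was higher and 2 lower. Cbx1, heterochromatin protein 1 beta, was at 52.96, 50.2 and 47.3 CPM in B6 and 22.02, 22.5 and 27.5 CPM in D2 (log2 fold change -1.06 ± 0.10, adjusted p = 2.82e-05). The linker histone gene Hist1h1e was higher (log2 fold change 2.74 ± 0.68, adjusted p = 0.02).

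Glial and vascular markers had few calls. Of 28 astrocyte markers 1 was higher, the water channel Aqp4 at 149.5, 173 and 191 CPM in B6 and 266, 212 and 362 CPM in D2 (log2 fold change 0.71 ± 0.19, adjusted p = 0.0298), and the median was 0.21. The call of Aqp4 was lost in 7 of 26 alternative fits. Gfap, the filament protein of reactive astrocytes, was at 571, 693 and 555 CPM and 939.8, 432 and 2204 CPM (log2 fold change 0.98 ± 0.51, adjusted p = 0.299). Of 32 markers of mature oligodendrocytes, Mobp, a protein of compact myelin, was lower, at 666, 917 and 989 CPM in B6 and 201, 159.8 and 85.8 CPM in D2 (log2 fold change -2.53 ± 0.29, adjusted p = 0.000103), and Car2, carbonic anhydrase 2, was higher (log2 fold change 0.58 ± 0.15, adjusted p = 0.0236, lost in 7 of 26). Of 14 precursor markers Vcan was higher (log2 fold change 0.46 ± 0.13, adjusted p = 0.04, lost in 13 of 26 alternative fits) and Cacng4 was lower. Of 32 endothelial markers Erg (log2 fold change -0.68 ± 0.20, adjusted p = 0.0429), whose call was lost in 15 of 26 alternative fits, and Spock2 were lower, and of 18 pericyte and smooth muscle markers Rgs5 was lower, at 134, 146 and 135 CPM in B6 and 58.8, 78.1 and 72.9 CPM in D2 (log2 fold change -0.99 ± 0.18, adjusted p = 0.00259).

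Of 32 microglial markers 2 were lower in D2 and 0 higher. Fcrls, an Fc receptor-like protein of microglia, was at 21.3, 25.7 and 20.04 CPM in B6 and 3.90, 4.13 and 5.93 CPM in D2 (log2 fold change -2.26 ± 0.27, adjusted p = 0.000152), and Slc2a5, a fructose transporter, at 5.10, 4.40 and 3.76 CPM and 1.67, 2.43 and 1.78 CPM (log2 fold change -1.18 ± 0.26, adjusted p = 0.0101). The fractalkine receptor Cx3cr1 was at 64.5, 62.2 and 56.5 CPM and 72.3, 51.9 and 83.1 CPM, with overlapping groups (log2 fold change 0.18 ± 0.20, adjusted p = 0.676). Of 28 activation markers Gpnmb was lower and Lpl, lipoprotein lipase, was higher (log2 fold change 1.36 ± 0.22, adjusted p = 0.00132). The activation markers summed to 6064 CPM in D2 Ctrl 3 and to 4347 to 5093 CPM in the other 5 Ctrl libraries, and their median was 0.37 with D2 Ctrl 3 and 0.08 without it, and 1 member was called each way in both fits. In KD mice 17 of 32 microglial markers were lower in D2 and the median was -0.85, against 0.17 in Ctrl mice.

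Interferon-stimulated genes had a median of 0.69, and 51 of 59 were above 0, but only 3 were called higher and 1 lower (6.78%). Without D2 Ctrl 3 the median was 0.12 and 2 were called higher. Irf7, a regulator of the response, was at 3.05, 3.33 and 1.91 CPM in B6 and 3.53, 4.25 and 8.74 CPM in D2 (log2 fold change 1.00 ± 0.67, adjusted p = 0.434). The 2 called members with levels high in all D2 mice were Slfn5 at 3.37, 5.54 and 6.33 CPM and 18.3, 21.96 and 19.04 CPM (log2 fold change 1.96 ± 0.43, adjusted p = 0.00973) and Slfn8 (log2 fold change 1.84 ± 0.49, adjusted p = 0.028, lost in 8 of 26 alternative fits). Ifi203 was lower, at 4.99, 5.73 and 6.42 CPM and 1.18, 0.623 and 1.00 CPM (log2 fold change -2.58 ± 0.34, adjusted p = 0.00029). In KD mice the median was -1.34, so the list leaned the other way there. Of 36 MHC genes 3 were higher and 4 lower (19.4%). They summed to 782.6 CPM in D2 Ctrl 3 and to 304.9 to 443.5 CPM in the other 5, and without it the median went from 0.31 to 0.03, with 2 called higher and 4 lower. H2-T10 (log2 fold change 1.77 ± 0.27, adjusted p = 0.000978) and H2-T22 (log2 fold change -1.31 ± 0.37, adjusted p = 0.0386) were called in opposite directions and are near-identical copies with 23.7 CPM in B6 and 13.2 CPM in D2 together, and the call of H2-T22 was lost in 11 of 26 alternative fits. Of 31 complement genes 4 were lower and 0 higher (12.9%, near the background). The lower ones included the regulator Cd46 (log2 fold change -2.09 ± 0.36, adjusted p = 0.00207) and C4a (log2 fold change -0.88 ± 0.19, adjusted p = 0.00845). They summed to 2567 CPM in D2 Ctrl 3 and to 1185 to 1504 CPM in the other 5, and the median was 0.03 with it and -0.13 without it, where 4 were again called lower.

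Markers of the other tissues that a dissection could carry were also examined. All 22 choroid plexus markers had a log2 fold change above 0, with a median of 1.52, and the number called was 0 by edgeR and 0 by DESeq2 (0 had an unadjusted p under 0.05). Their summed CPM ran from 298.7 to 4455 in B6 and from 609.2 to 8167 in D2, and the median ran from 1.02 without B6 Ctrl 1 to 3.63 without B6 Ctrl 2, and was 1.07 without D2 Ctrl 3. It was 0.82 with the total count as a covariate. With the choroid score, the mean log2 level of these same markers, as a covariate it was 0.07. That fall was fixed in advance by how the score was built, so nothing is concluded from it. With the choroid score as a covariate 2036 genes were called in all. Of 19 thalamic and habenular markers Tcf7l2 (log2 fold change 0.82 ± 0.19, adjusted p = 0.0143) and Lhx9 (log2 fold change 0.79 ± 0.20, adjusted p = 0.0222, lost in 7 of 26 alternative fits) were higher and Rora was lower. Of 16 neocortical markers 1 was lower, Krt12 (log2 fold change -3.52 ± 0.59, adjusted p = 0.00182). Striatum (14 markers), fibroblasts and meninges (22), ependymal cells (18) and lymphocytes (9) had 0 calls each, with 1, 1, 2 and 0 members at an unadjusted p under 0.05. The part of carried-over tissue in the calls was not tested beyond the covariate.

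The largest gaps outside these lists included genes at or near 0 in the Ctrl mice of 1 strain. In 85 genes called higher in D2 the 3 B6 Ctrl libraries held at most 3 counts each, and in 69 called lower the 3 D2 Ctrl libraries did. Hsd3b2, a steroid dehydrogenase, was at 95.5, 80.5 and 80.8 CPM in B6 and had at most 1 count in any D2 Ctrl library. Eif3j1, of a translation initiation factor, was at 51.3, 46.03 and 51.3 CPM in B6 and had 0 counts in D2 Ctrl, while the near-identical Eif3j2 was at 21.3, 19.3 and 21.2 CPM and 55.6, 48.8 and 46.3 CPM. Btg3, an antiproliferative gene, was at 20.1, 14.9 and 12.1 CPM and had 0 counts in D2 Ctrl. Ces2b, a carboxylesterase, was at 14.97, 14.8 and 13.8 CPM in B6, and Gdf1, a growth factor, at 11.8, 16.8 and 21.2 CPM, both with at most 1 count in a D2 Ctrl library. The call of Gdf1 was lost in 16 of 26 alternative fits. In KD mice Gdf1 was at 12.4, 19.2 and 0 CPM in B6 and 0.105, 16.4 and 0.158 CPM in D2 (log2 fold change -0.90, adjusted p = 0.789) and Eif3j1 at 4.58, 0 and 0 CPM in D2, so neither was absent from every D2 mouse. On the D2 side, 2900097C17Rik was at 2366, 2746 and 2174 CPM and Gm20594 at 189.5, 173 and 188 CPM, both with 0 counts in B6 Ctrl. Gm13363, a near-identical copy of the phosphatase gene Ptp4a1, was at 101, 119 and 89.9 CPM in D2. It had at most 3 counts in any B6 Ctrl library.

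Among genes counted in every mouse, Slc38a6, an amino acid transporter, was at 538, 539.6 and 577 CPM in B6 and 11.6, 10.9 and 11.2 CPM in D2 (log2 fold change -5.62 ± 0.17, adjusted p = 5.59e-09). Myoc, or myocilin, was at 18.2, 31.01 and 19.6 CPM and 0.991, 0.509 and 0.370 CPM (log2 fold change -5.15 ± 0.50, adjusted p = 3.29e-05). Pcdhga9, a clustered protocadherin, was at 783, 744 and 744 CPM and 31.2, 28.6 and 36.3 CPM (log2 fold change -4.56 ± 0.13, adjusted p = 5.02e-09). Dnajb14, Tmem245 and Psg16 were also lower (-4.74, -4.65 and -4.57 on the log2 scale). On the other side Stab2, a scavenger receptor, was at 1.02, 1.61 and 1.07 CPM in B6 and 58.2, 79.1 and 47.8 CPM in D2 (log2 fold change 5.66 ± 0.24, adjusted p = 6.1e-08). Fzd3, a Wnt receptor, was at 3.32, 3.36 and 3.38 CPM and 102, 121 and 94.3 CPM (log2 fold change 4.98 ± 0.11, adjusted p = 1.17e-09), and Nkain2 at 0.863, 0.612 and 0.896 CPM and 60.7, 59.5 and 45.1 CPM (log2 fold change 6.10 ± 0.17, adjusted p = 4.68e-09). Amd2, Frat1 and Ppp2r3d were higher as well (7.58, 4.43 and 4.95), of which Amd2 has 4 pseudogene copies.

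Highly expressed genes that differed at least 2-fold without overlap included Prkcb, protein kinase C beta, at 265, 249 and 473 CPM in B6 and 1098, 1070.4 and 682 CPM in D2 (log2 fold change 1.53 ± 0.29, adjusted p = 0.00354). Scg5, a chaperone of prohormone convertase 2, was at 131, 126 and 131 CPM and 373, 354 and 286 CPM (log2 fold change 1.39 ± 0.11, adjusted p = 7.73e-06). Syne1, of the nuclear envelope, was at 220.5, 229.7 and 292 CPM and 559.8, 506 and 614 CPM (log2 fold change 1.18 ± 0.15, adjusted p = 0.000189), and Add2, beta adducin, at 132, 152 and 202 CPM and 554, 519 and 327 CPM (log2 fold change 1.52 ± 0.41, adjusted p = 0.0275). Lower in D2 were Zwint, at 824, 701 and 724 CPM and 274, 307 and 331 CPM (log2 fold change -1.30 ± 0.15, adjusted p = 0.000121), and Sorl1, the sorting receptor linked to Alzheimer's disease, at 358, 363 and 572 CPM and 228, 207 and 84.97 CPM (log2 fold change -1.31 ± 0.37, adjusted p = 0.0376). Frrs1l, an AMPA receptor assembly factor, was at 381, 367 and 557 CPM and 186, 187 and 60.9 CPM (log2 fold change -1.59 ± 0.43, adjusted p = 0.0283). For Sorl1 and Frrs1l the lowest level was in D2 Ctrl 3, and their calls were lost in 12 and 6 of 26 alternative fits, as was that of Add2 in 6.

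The same comparison in KD mice contrasts other libraries than the one above but has the same 2 references. Both contrasts came from 1 fit to all 12 libraries. They share its filter, scaling and estimates of spread, so the overlap of calls is not that of 2 independent analyses. In KD mice 2373 of 15853 genes (15.0%) passed the threshold, with D2 higher in 939 and B6 higher in 1434. Of the 2216 genes called in Ctrl mice, 2189 (98.8%) had the same sign in KD mice and 1724 were called in the same direction, which is 77.8% of the Ctrl calls and 72.7% of the KD calls. Across the 15853 genes Pearson's r of the log2 fold changes was 0.85 and Spearman's rho 0.50, as a description over genes that are not independent. Grin2b, Kcnq3, Kcna2 and Glo1 differed by -3.36, -4.15, 3.89 and 1.07 in KD mice. Only 2 genes were called in opposite directions, Aqp4 (0.71 in Ctrl and -0.71 in KD) and Apol9b (2.79 and -2.01), the second of them named after its values were seen. In a direct test of whether the strain difference changed between Ctrl and KD, the count was 0 by edgeR (unadjusted p under 0.05 in 937) and 11 by DESeq2. Among genes named above, the strain calls of Gabbr2, Rims2, C1ql3, Dlx1, Tcf7l2 and Hist1h1e were each lost in 5 of 26 alternative fits and those of Cacng3 and Glis3 in 4.

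**Figure D5:**
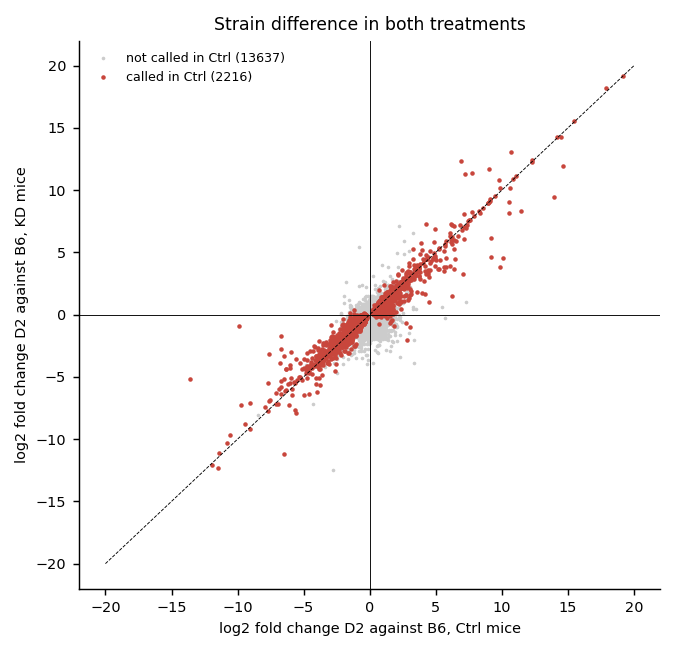
Log2 fold change of D2 against B6 in the 6 Ctrl mice (horizontal) and in the 6 KD mice (vertical) for 15853 genes, with the 2216 genes called in Ctrl in red and a dashed line of equality. The red points follow the line, and 2189 of them have the same sign on both axes.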

How the data were processed

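RNA was extracted from snap-frozen hippocampus with the miRNeasy kit, and mRNA libraries were made with the KAPA Hyper Prep kit, per the labels. The authors used strain-specific genomes, B6 for B6 reads and D2 for D2 reads, and estimated expression per gene with RSEM and bowtie2, for which the submitters' processing notes list RSEM 1.2.12, Bowtie2 2.2.0 and the builds GRCm38 and mm10. The annotation release was not given in the sources used here. The deposited expected counts are these RSEM estimates, not normalized. RSEM divides reads that fit several genes among them, and strandedness was not given. The deposited DESeq2-normalized table was not used.

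The table held 22236 genes, and its values were rounded to integers after 27 symbols turned into dates had been restored from gene identifiers. Chromosomes were taken from GENCODE M21 for 21933 genes. The default filterByExpr took out low-count genes. Then edgeR 4.0.16 (R 4.3.3; quasi-likelihood, TMM, robust estimation, older method) was fitted to all 12 libraries with a mean per group, and a gene was called at a Benjamini-Hochberg adjusted p under 0.05. All adjusted p-values in the text come from this fit unless another tool is named. The ± after a log2 fold change is an approximate standard error, computed from the log2 fold change and the F statistic. With 3 mice a group the spread between mice, not depth, sets the precision of most genes, and floors of 3 counts cover counting error only. DESeq2 1.42.0 and limma 3.58.1 (voom) fits were alternatives, as were other normalizations, filters and covariates and leaving out each library. Near-identical copies were found with BLAST 2.17.0 as matches of a gene's longest coding sequence to transcripts of other GENCODE M21 genes. The fits were tested on simulated data.

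The comparison, the 44 gene lists and the rule for naming genes were chosen with earlier results of these data known. A list was described by its members called and its median, and no test was run on a list. Besides Hp1bp3 and the strain-variable genes, the rule named the 10 most abundant genes each way that were called, differed at least 2-fold and did not overlap, the 10 largest changes each way above a mean of 5 CPM, up to 4 called members per list and direction, and the 5 most abundant each way with at most 3 counts in all Ctrl libraries of a strain. Clone names were left out of the groups of abundant genes and of largest changes, 63 of 533 eligible genes higher and 67 of 1062 lower in the latter. Genes that were not called, such as Grin1, Gad1, Pvalb, Gria1, Gfap, Cx3cr1, Irf7, Fos, Slc17a7 and Ttr, and members of copy pairs, were added after their values were seen. Mice were numbered 1 to 3 within a group in order of deposit. The labels do not say that libraries came from separate mice beyond their mouse numbers, and no pooling is stated. Some genes that the rule named are not reported here.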

Additional observations from a re-analysis of the deposited data

Results flagged for a closer look

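Aqp4, the water channel of astrocyte endfeet, differed between the strains in opposite directions in the 2 treatments. It was higher in all 3 D2 Ctrl mice than in all 3 B6 Ctrl mice and lower in all 3 D2 KD mice than in all 3 B6 KD mice. The strain difference in Ctrl minus that in KD was 1.42 on the log2 scale, with an unadjusted p of 0.000297 and an adjusted p of 0.82 in the quasi-likelihood test of edgeR over all genes, so it did not pass the threshold.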

How the results depend on the processing

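The number of genes called in Ctrl mice stayed within 1.5 times the 2216 of the main setting under every alternative but the stricter threshold. At an adjusted p under 0.01 it was 1431 genes, 520 higher and 911 lower in D2, and 1435 genes in KD mice. Leaving out 1 library of the 12 gave 1660 to 2446 genes in Ctrl mice, 604 to 956 of them higher and 1056 to 1490 lower, 1824 to 2580 genes in KD mice and 0 genes for the difference between the treatments, for which DESeq2 called 11 genes with all libraries. DESeq2 called 2678 genes in Ctrl mice and limma-voom 2160. The total count of a library as a covariate gave 1758 genes. With genes left out that had a near-identical copy or a same-strand overlap, an alternative chosen after seeing the data, 1769 genes were called, 609 higher and 1160 lower. The share of calls that were higher in D2 ran from 34.4% to 39.1%. Of 156 named genes that were called, 114 were called in all 26 alternatives in which they were tested and 42 were lost in at least 1, and no named gene reversed its sign among called values. The cause of these losses was not tested. No paired analysis was possible because the labels carry no replicate number, and the numbers used here follow the order of deposit.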
